A study of Mus musculus with 3 samples.

Results

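IL-17-type gamma-delta T cells were 606 of the 14226 barcodes that passed quality limits, out of 14336 barcodes in all, in droplet single-cell RNA-seq of leukocytes from mouse mammary tumours. The tumours grew from the 2208L mammary tumour cell line, injected into the mouse mammary gland and harvested 4 weeks later at a diameter of 0.7 to 1 cm. Live leukocytes (CD45+, DAPI-) were sorted on a BD Aria I and made into 10x Genomics libraries, and 3 libraries, here replicates 1 to 3, form a single group with no treatment or genotype contrast. The labels do not say whether the 3 libraries came from separate mice, so every p-value below measures only the spread between these libraries, which may be technical. The comparisons were therefore made between cell classes within the libraries.

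Gamma-delta T cells carry a T-cell receptor built from a gamma and a delta chain in place of the alpha and beta chains of conventional T cells. A subset is programmed in the thymus to make interleukin-17A, settles in skin, lung, gut and other barrier tissues, and responds to interleukin-1 and interleukin-23 without prior priming. In mouse breast tumour models such cells are known as a source of IL-17 that expands and mobilises neutrophils. A second kind of gamma-delta T cell makes interferon-gamma and carries CD27, and the IL-17 kind is defined in mice partly by lacking it.

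A barcode counted as an IL-17-type gamma-delta T cell when it had at least 200 genes and at most 10% mitochondrial counts and met limits on named transcripts. It needed at least 1 unique molecular identifier (UMI, 1 counted transcript molecule) of the delta constant gene Trdc or of Cd163l1, and at least 2 UMIs over Trdc, the gamma constant gene Tcrg-C1, Cd163l1 (the scavenger receptor SCART1) and Il17a. It needed a Cd3d, Cd3e or Cd3g UMI, none of Cd4, Cd8a, Cd8b1 or the NK gene Ncr1, under 0.5% of its UMIs in S100a8 and S100a9, at most 1 UMI of C1qa, C1qb and C1qc together, and at most 2 of H2-Ab1. Because these values chose the cells, the levels of the genes just named are given as a description with no test. The cells they were set against, called alpha-beta T cells here, met the same limits on quality, Cd3, Ncr1, S100a8 and S100a9, C1q and H2-Ab1, had a UMI of the alpha constant gene Trac and none of Trdc, and numbered 1510 barcodes. Levels are CPM: the UMIs of a gene over all barcodes of a class in a library, scaled to a total of 1000000 UMIs.

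Gamma-delta T cells made up 5.62%, 2.13% and 6.04% of quality-passing barcodes in replicates 1 to 3, from 246, 128 and 232 barcodes. The exact 95% intervals ran over 4.95 to 6.34, over 1.78 to 2.53 and over 5.31 to 6.84. The mean was 4.60% ± 2.15 (SD, n = 3), and the interval of replicate 2 lay apart from those of the other libraries. Of the 4030 barcodes with any Cd3 UMI they were 18.2%, 7.0% and 27.4% in replicates 1, 2 and 3, so replicate 2 was lowest on both denominators. Median depth was 1448.5, 1898 and 2219.5 UMIs per gamma-delta barcode in replicates 1 to 3, against 1227, 1493 and 1684 UMIs per alpha-beta barcode, and intervals and limits below cover counting error only. All 3 libraries together held 29, 25 and 37 barcode sequences shared between pairs of libraries, and 0 of the shared barcodes were gamma-delta T cells. Neutrophil marker genes summed to 742 to 989 CPM in gamma-delta T cells, against 552 to 895 CPM in alpha-beta T cells and at least 44431 CPM in barcodes gated as neutrophils. NK marker genes summed to 187 to 234 CPM in gamma-delta T cells, against 175 to 282 CPM in alpha-beta T cells 3095 to 3511 CPM in NK barcodes and 5276 to 6427 CPM in neutrophil barcodes, so the sum does not single out NK cells. Of its 8 genes, Eomes, Klra4 and Klra8 were at 0 in gamma-delta T cells, Klra8 was at 0 in NK barcodes too, and Tyrobp was called higher in gamma-delta T cells (log2 difference 0.46 ± 0.15, edgeR adjusted p = 0.0259) with ranges that overlapped. The Tyrobp call was lost with DESeq2 (adjusted p = 0.473). By edgeR it was lost after thinning (0.504), without replicate 1 (0.164) or replicate 3 (0.133), and under further alternatives. The 6 neutrophil and 4 macrophage markers that were tested held 0 called genes between gamma-delta and alpha-beta T cells by edgeR, 0 by DESeq2 and 0 at an unadjusted p under 0.05, with exceptions under some alternatives. After thinning to 1000 UMIs the neutrophil gene G0s2 was called higher (adjusted p = 0.00538) and the macrophage gene Cd74 lower (0.0134), G0s2 was called higher in gamma-delta T cells without a Trac UMI (0.046), Il1b without replicate 3 (0.00539), and the macrophage gene Lyz2 without replicate 2. The part of free or doublet RNA in the other results was not tested.

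**Figure D1:**
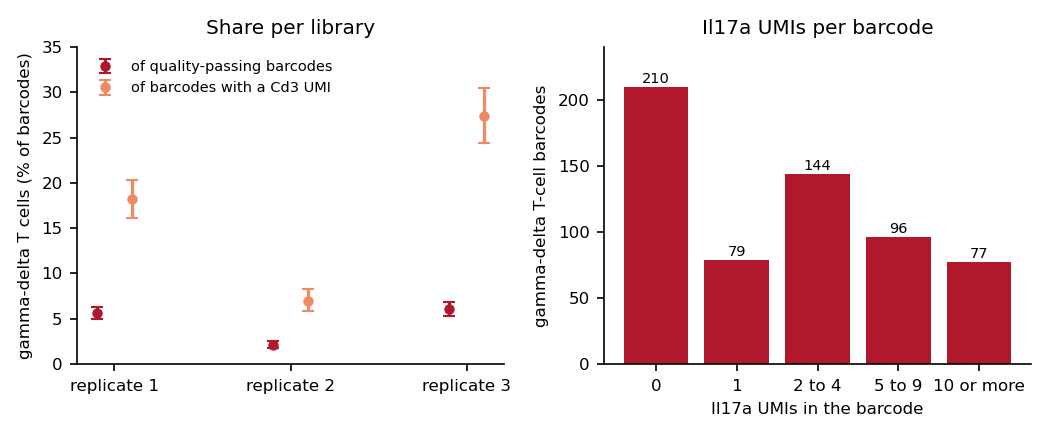
Left, gamma-delta T cells as a percentage of quality-passing barcodes and of barcodes with a Cd3 UMI in each library, with exact 95% binomial intervals, where replicate 2 is lowest on both. Right, the number of gamma-delta T-cell barcodes by the Il17a UMIs they hold, from 210 barcodes with 0 to 77 with 10 or more.

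The delta chain constant gene Trdc (chr14:54142851-54148868, plus strand, GRCm38) had 1544, 1465 and 1420 CPM in gamma-delta T cells of replicates 1 to 3, against 0 by construction in alpha-beta T cells. Tcrg-C1 (chr13:19214103-19217024, plus strand) had 1480, 1091 and 1024 CPM in gamma-delta T cells, against 109, 49.2 and 71.1 CPM in alpha-beta T cells. Cd163l1 (chr7:140218267-140231145, plus strand) had 518, 328 and 318 CPM in gamma-delta T cells, against 2.99, 1.35 and 3.47 CPM in alpha-beta T cells. Trdc had a UMI in 581 of the 606 barcodes, Tcrg-C1 in 506 and Cd163l1 in 229, so the delta chain carried most of the choice. Trac, which the rule did not read in gamma-delta T cells, had 92.2, 83.0 and 99.0 CPM there, against 1224, 1134 and 1052 CPM in alpha-beta T cells, where it was required. At the edge of the rule, the 57 gamma-delta barcodes with exactly 2 UMIs over the 4 summed genes had a median of 1398 UMIs and held Il17a in 10 and Blk in 12. The 37 barcodes that missed it with a sum of 1 had a median of 1344 UMIs and held Il17a in 0 and Blk in 4. The median gamma-delta T cell had a sum of 8, and the highest had 59.

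Il17a, the gene of the cytokine that names these cells, had 1916, 2265 and 1644 CPM in gamma-delta T cells (mean 1942 ± 311, SD, n = 3), against 88.2, 42.5 and 29.5 CPM in alpha-beta T cells (53.4 ± 30.8). The lowest gamma-delta library stood far above the highest alpha-beta library. In all, 2249 of the 3044 Il17a UMIs of the quality-passing barcodes, 73.9%, lay in these cells, while alpha-beta T cells held 4.57%, other Cd3-positive barcodes 20.04% and barcodes without Cd3 1.51%. The transcript was unevenly spread among gamma-delta T cells, with 0 UMIs in 210 barcodes, 1 in 79, 2 to 4 in 144, 5 to 9 in 96 and 10 or more in 77. Those last 77 barcodes held 1124 UMIs, and the highest had 35. In barcodes gated as neutrophils, which should lack the transcript, 7 of 1765 held an Il17a UMI (0.397%, median depth 1068 UMIs), far under the 65.3% of gamma-delta T cells (median depth 1821.5 UMIs). After thinning every barcode to 1000 UMIs the shares were 55.2% in gamma-delta T cells and 3.61% in alpha-beta T cells, against 4.11% of alpha-beta T cells unthinned, and neutrophil barcodes were at 0.199%.

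Because Il17a and Cd163l1 helped to choose the cells, a second choice used T-cell receptor transcripts alone, with at least 1 Trdc UMI, at least 2 over Trdc and Tcrg-C1, and all other limits kept. It found 554 barcodes (214, 118 and 222 in replicates 1 to 3). Their Il17a level was 1853, 2220 and 1655 CPM, against 90.7, 42.5 and 32.9 CPM in alpha-beta T cells, and 63.5% of them had an Il17a UMI (95% exact interval 59.4 to 67.6). That was a log2 difference of 5.14 ± 0.32 (standard error), and edgeR's quasi-likelihood test, adjusted by Benjamini-Hochberg over 5409 genes, gave an adjusted p of 0.00148. Cd163l1 had 485, 308 and 317 CPM in the same cells, against 11.9, 1.35 and 5.19 CPM in alpha-beta T cells, a log2 difference of 6.08 ± 0.27 (edgeR, adjusted p = 1.96e-14). The ranges did not overlap for either gene, and 19.2% of all genes tested were called in this comparison.

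The promoters of Il17a and its neighbour Il17f are shown because both genes belong to the IL-17 locus on chromosome 1. Il17a spans chr1:20730905-20734496 on the plus strand and Il17f chr1:20777146-20790617 on the minus strand (GRCm38). The windows, from RefSeq on GRCm38.p6, run 5′ to 3′ on each gene's own strand over 300 bases, from 250 before the annotated start, at chr1:20730655-20730954 (plus) for Il17a and chr1:20784221-20784520 (minus) for Il17f. Capitals mark the hexamer AGGTCA, a core element bound by many nuclear receptors, or its reverse complement TGACCT.
Il17a: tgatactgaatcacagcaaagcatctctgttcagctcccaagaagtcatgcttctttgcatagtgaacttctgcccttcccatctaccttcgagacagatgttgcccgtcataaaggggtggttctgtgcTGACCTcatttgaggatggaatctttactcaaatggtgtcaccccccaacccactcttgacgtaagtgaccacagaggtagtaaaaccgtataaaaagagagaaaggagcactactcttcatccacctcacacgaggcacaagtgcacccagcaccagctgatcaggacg
Il17f: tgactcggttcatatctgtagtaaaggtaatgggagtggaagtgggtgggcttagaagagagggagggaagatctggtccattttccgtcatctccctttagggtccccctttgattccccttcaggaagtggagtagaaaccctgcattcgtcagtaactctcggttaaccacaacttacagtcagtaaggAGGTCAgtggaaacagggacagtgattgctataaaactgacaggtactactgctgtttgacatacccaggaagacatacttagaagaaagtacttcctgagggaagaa
Both strands were searched, the match in Il17a began at base -120 from its window's start site and the match in Il17f at base -58. The start site of the Il17f window lies inside the gene span given above and not at its end. The hexamer was present in 16.3% of all 32851 windows of this length, so a match of 6 letters is common and describes the sequence alone. Of the 17 regulator and receptor genes found higher below, 10 had a window in the table and 2 of those, Il23r and Tnfrsf25, held the hexamer. Counted by gene in the same way, 18.1% of all 27025 genes with a window held it.

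The regulators of the IL-17 programme were higher in gamma-delta T cells than in alpha-beta T cells. Of 13 such genes tested, 9 were higher, 3 lower and 1 not called, with a median log2 difference of 1.45, against a median near 0 (-0.0018) over all 5473 genes and 19.7% of all genes called, 10.5% higher and 9.26% lower. The libraries of the classes did not overlap for 12 of the 13, against 33.1% of all genes. That share is also the background for the other ranges of gamma-delta and alpha-beta T cells compared below. Blk, a Src-family kinase needed for development of IL-17 gamma-delta T cells in mice (chr14:63372836-63417037, minus strand), had 301, 321 and 278 CPM in gamma-delta T cells, against 5.98, 4.72 and 6.93 CPM in alpha-beta T cells (log2 difference 5.70 ± 0.24, edgeR adjusted p = 3.24e-16). A Blk UMI was present in 241 of 606 gamma-delta barcodes, 39.8%, against 12 of 1510 alpha-beta barcodes, 0.795%, and in 0 neutrophil barcodes. Sox13, an early lineage factor of these cells, had 62.3, 64.2 and 76.6 CPM in gamma-delta T cells, against 0, 0 and 1.73 CPM in alpha-beta T cells, 83 UMIs against 1, a ratio of 188 with a counting interval of 32.9 to 7532.

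Maf, whose factor c-Maf is required for the IL-17 gamma-delta fate, had 346, 374 and 316 CPM in gamma-delta T cells, against 59.8, 59.4 and 88.4 CPM in alpha-beta T cells (log2 difference 2.32 ± 0.16, edgeR adjusted p = 1.45e-11). Rora, a nuclear receptor gene, had 227, 147 and 196 CPM in gamma-delta T cells, against 73.3, 67.5 and 60.7 CPM in alpha-beta T cells (1.45 ± 0.17, adjusted p = 2.57e-07). Zbtb16, which encodes the innate-like lymphocyte factor PLZF, had 44 UMIs in gamma-delta T cells, against 3 in alpha-beta T cells, a ratio of 33.3 (10.7 to 168). None of these ranges overlapped between the classes. Nfkbiz, Ahr and Irf4 were also higher, Hif1a was not called, and Id2, Batf and Stat3 were lower by 0.68, 0.68 and 0.63 on the log2 scale. DESeq2 on the same sums called 6 of the 13 higher and 1 lower, against 4.44% and 3.87% of all genes.

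Receptors through which these cells receive cytokine signals were higher as well. Of 9 tested, 8 were higher, against 10.5% of all genes, and 1, Tnfrsf1b, was not called. The median log2 difference was 2.02, and DESeq2 called 7 higher, against 4.44% of all genes. Il7r, the receptor chain for the survival cytokine IL-7, had 546, 415 and 538 CPM in gamma-delta T cells, against 157, 89.0 and 130 CPM in alpha-beta T cells (1.98 ± 0.13, edgeR adjusted p = 3.76e-12). Il1r1, the signalling receptor for IL-1, had 34.9, 41.5 and 37.4 CPM in gamma-delta T cells and 0 UMIs in every alpha-beta library. That is at least 34.1-fold higher, with a floor of 3 counts over the alpha-beta class, in which 0 of 1510 barcodes allows a share of up to 0.199% (adjusted p = 5.49e-07). Il23r, the IL-23 receptor chain, was low in both classes, with 22 UMIs in gamma-delta T cells and 3 in alpha-beta T cells, a ratio of 16.7 with a counting interval of 5.0 to 86.9 (adjusted p = 0.0019).

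Il17re, which encodes the receptor chain for IL-17C, had 92.2, 90.6 and 135 CPM in gamma-delta T cells, against 19.4, 14.8 and 17.3 CPM in alpha-beta T cells (log2 difference 2.56 ± 0.24, edgeR adjusted p = 5.35e-09). Tnfrsf25, which encodes death receptor 3, had 189, 219 and 217 CPM in gamma-delta T cells, against 26.9, 17.5 and 41.6 CPM in alpha-beta T cells (2.93 ± 0.21, adjusted p = 3.93e-11). Il2ra (2.02 ± 0.22), Il18r1 (1.22 ± 0.16) and Il12rb1 (1.75 ± 0.34) were the other called receptors. Ccr6, a chemokine receptor often used to mark IL-17 gamma-delta T cells, was too low to test, with a UMI in 13 of 606 gamma-delta barcodes, 2.15%, against 18 of 1510 alpha-beta barcodes, 1.19%. Il23r, Il17f, Blk, Sox13, Maf, Il1r1 and 5830411N06Rik, markers of IL-17 gamma-delta T cells that the rule did not read, were thus higher, and with Ccr6 untested none of them went against the label.

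Beside Il17a, the cytokine genes were mixed, with 4 of 10 tested higher, 2 lower and 4 not called and a median log2 difference of 0.69. Of all genes, 10.5% were higher and 9.26% lower. Il17f, the neighbouring IL-17 family member, had 32.4, 68.0 and 61.7 CPM in gamma-delta T cells, against 0, 13.5 and 19.1 CPM in alpha-beta T cells (2.31 ± 0.38, edgeR adjusted p = 6.55e-05). It was found in 32 of 606 gamma-delta barcodes, 5.28%, against 16 of 1510 alpha-beta barcodes, 1.06%. Tnf had 117, 106 and 103 CPM in gamma-delta T cells, against 29.9, 27.7 and 20.8 CPM in alpha-beta T cells (2.0 ± 0.22, adjusted p = 7.23e-08). Areg, the gene of the epidermal growth factor receptor ligand amphiregulin, had 44.8, 79.3 and 54.2 CPM in gamma-delta T cells, against 8.97, 16.2 and 0 CPM in alpha-beta T cells (2.67 ± 0.39, adjusted p = 2.71e-05). Csf2, which encodes GM-CSF, had 42.4, 68.0 and 41.1 CPM in gamma-delta T cells, against 8.97, 16.9 and 0 CPM in alpha-beta T cells (2.41 ± 0.40, adjusted p = 8.03e-05). The classes did not overlap for any of these 4 genes.

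Il22 had 29 UMIs in 9 gamma-delta barcodes and levels that overlapped those of alpha-beta T cells, at 39.9, 34.0 and 7.47 CPM in gamma-delta T cells and 4.48, 3.37 and 24.3 CPM in alpha-beta T cells (edgeR adjusted p = 0.492). Tnfsf8, the gene of CD30 ligand, was lower in gamma-delta T cells, with 3 UMIs, against 158 in alpha-beta T cells, a ratio of 23.2 in favour of alpha-beta T cells (7.79 to 114). Tnfsf11, which encodes RANKL, was also called lower (log2 difference -1.30 ± 0.37, adjusted p = 0.0133), and that call ended without replicate 1 (adjusted p = 0.125) or replicate 3 (0.0733) and with DESeq2 (0.423). Tgfb1, Ltb and Cxcl2 were not called.

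**Figure D2:**
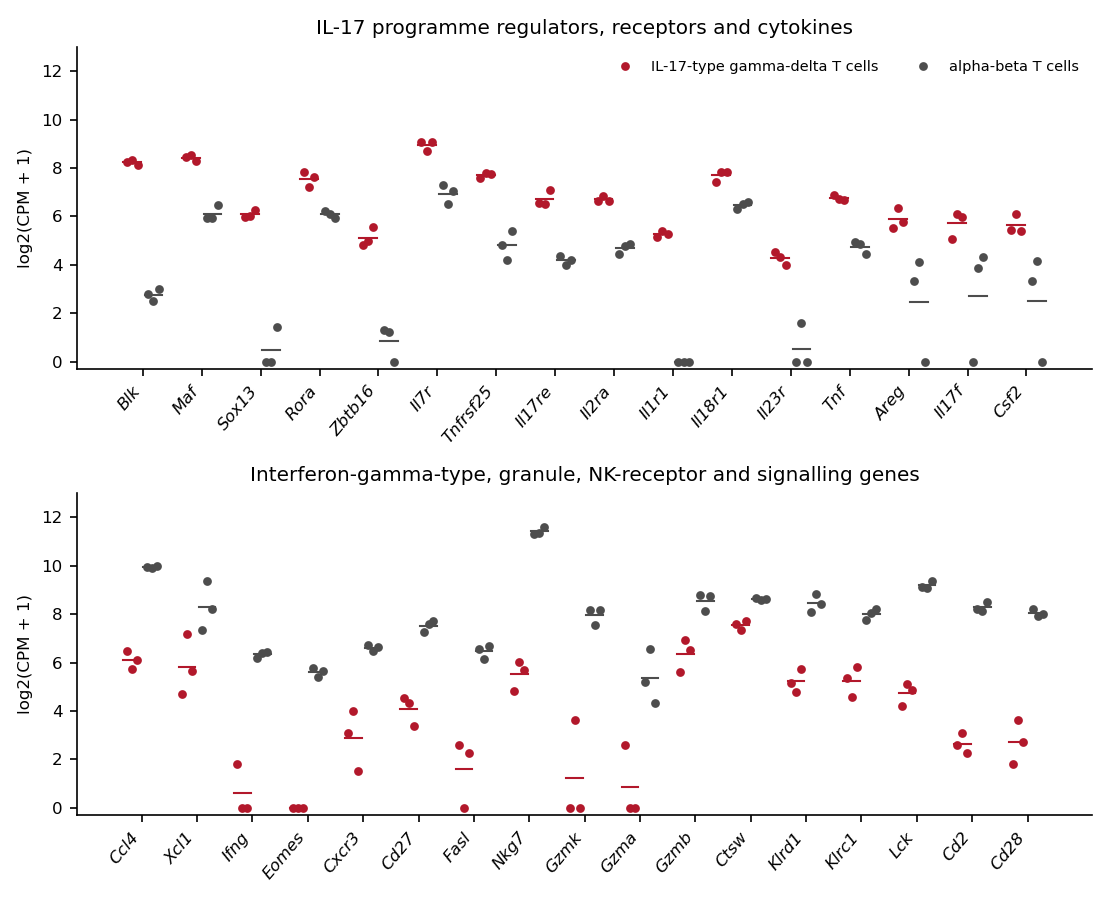
Level, as log2(CPM + 1), of the named genes in each library for gamma-delta T cells (red, left of each pair) and alpha-beta T cells (grey, right), with 1 point per library and a line at the mean. Both panels show selected genes. The regulators, receptors and cytokines of the IL-17 programme shown in the top panel sit higher in gamma-delta T cells. The interferon-gamma-type, granule, NK-receptor and signalling genes shown in the bottom panel sit lower. Genes of the same lists that went the other way are not shown, among them Id2, Batf, Stat3, Tnfsf8 and Tnfsf11 (lower) and Klrk1, Cd247 and Lax1 (higher).

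Genes reported for IL-17 gamma-delta T cells beyond this core showed the same direction, with 15 of 17 tested higher, against 10.5% of all genes. The other 2 (Cd9 and Igfbp7) were not called, and the median log2 difference was 2.63. The list was drawn up with earlier results of these data known, so its direction is a description. Ramp1, a co-receptor for the neuropeptide CGRP, had 1151, 1004 and 802 CPM in gamma-delta T cells, against 330, 269 and 210 CPM in alpha-beta T cells (1.84 ± 0.10, edgeR adjusted p = 8.89e-14). Actn2, the gene of an actin cross-linking protein, had 523, 449 and 503 CPM in gamma-delta T cells, against 109, 52.6 and 79.7 CPM in alpha-beta T cells (2.63 ± 0.15, adjusted p = 3.55e-13). Tmem176a, which encodes a membrane protein, had 785, 849 and 919 CPM in gamma-delta T cells, against 161, 82.3 and 98.8 CPM in alpha-beta T cells (2.91 ± 0.23, adjusted p = 0.000359). The antioxidant enzyme gene Gpx1 was higher by 1.90 ± 0.11 on the log2 scale.

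Among all genes not read by the rule, the highest fitted differences with at least moderate expression were led by Abi3bp, an extracellular matrix protein gene. It had 105, 75.5 and 99.0 CPM in gamma-delta T cells, against 0, 0.675 and 0 CPM in alpha-beta T cells, 115 UMIs against 1, a ratio of 261 (45.9 to 10402). Hbegf, which encodes heparin-binding EGF-like growth factor, had 110, 170 and 133 CPM in gamma-delta T cells, against 5.98, 4.72 and 5.20 CPM in alpha-beta T cells (4.73 ± 0.29, edgeR adjusted p = 9.46e-13). Aqp3, the gene of a water and glycerol channel, had 140, 143 and 189 CPM in gamma-delta T cells, against 13.5, 7.42 and 12.1 CPM in alpha-beta T cells (3.85 ± 0.25, adjusted p = 3.76e-12). These genes had clearly separate ranges in all 3 libraries. Sepp1, which encodes the selenium transport protein selenoprotein P, had 558, 479 and 572 CPM in gamma-delta T cells, against 55.3, 39.8 and 41.6 CPM in alpha-beta T cells (3.52 ± 0.15, adjusted p = 3.24e-16). Sepp1 is also a macrophage gene, and macrophage marker genes summed to 472 to 740 CPM in gamma-delta T cells, against 397 to 640 CPM in alpha-beta T cells.

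Serpinb1a, a protease inhibitor gene, had 167, 177 and 159 CPM in gamma-delta T cells, against 23.9, 8.77 and 15.6 CPM in alpha-beta T cells (log2 difference 3.47 ± 0.25, edgeR adjusted p = 3.47e-11). Ltb4r1, the receptor gene for the neutrophil attractant leukotriene B4, had 99.6, 132 and 129 CPM in gamma-delta T cells, against 17.9, 15.5 and 17.3 CPM in alpha-beta T cells (2.82 ± 0.24, adjusted p = 6.14e-10). Ifngr2, a chain of the interferon-gamma receptor, had 89.7, 143 and 118 CPM in gamma-delta T cells, against 20.9, 10.1 and 12.1 CPM in alpha-beta T cells (3.08 ± 0.28, adjusted p = 8.63e-09). Ly6g5b, a gene of the LY6 superfamily, was higher by 4.01 ± 0.33, the survival gene Bcl2a1a by 3.48 ± 0.25, Avpi1 by 3.27 ± 0.21 and Prr29 by 3.10 ± 0.30 on the log2 scale. Bcl2a1a has near-identical copies, so its share of reads is uncertain, and Bcl2a1b and Bcl2a1d were higher by 0.68 and 0.76. Cd79b, better known as a B-cell receptor chain, had 37.4, 64.2 and 57.9 CPM in gamma-delta T cells, against 7.47, 2.70 and 3.47 CPM in alpha-beta T cells (3.61 ± 0.44, adjusted p = 4.23e-07), while Cd79a, Fcmr, Ms4a1 and Pax5 were at 0 in gamma-delta T cells.

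Receptor chain genes differed with the cell choice. Tcrg-C4, a gamma constant gene that the rule did not read, had 466, 427 and 385 CPM in gamma-delta T cells, against 59.8, 21.6 and 52.0 CPM in alpha-beta T cells (log2 difference 3.35 ± 0.23, edgeR adjusted p = 4.37e-07). Tcrg-C2 had 336, 385 and 415 CPM in gamma-delta T cells, against 102, 146 and 97.1 CPM in alpha-beta T cells (1.68 ± 0.14), although its sequence is close to that of Tcrg-C1 and reads could be split between them. The beta constant gene Trbc2 had 1238, 1219 and 1325 CPM in gamma-delta T cells, against 1532, 1746 and 1919 CPM in alpha-beta T cells (-0.49 ± 0.09, adjusted p = 8.71e-05). Beta-chain transcripts were thus abundant in gamma-delta T cells, and a Trac UMI was present in 93 of the 606 barcodes, 15.3%, against 6.09% of NK barcodes and 0.170% of neutrophil barcodes.

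The interferon-gamma-type programme was lower in gamma-delta T cells, with 13 of 16 tested genes lower, against 9.26% of all genes. The other 3 were not called, and the median log2 difference was -3.70. Ifng had 1 UMI in gamma-delta T cells, against 220 in alpha-beta T cells, a ratio of 96.9 in favour of alpha-beta T cells (17.2 to 3844). It was found in 1 of 606 gamma-delta barcodes, against 151 of 1510 alpha-beta barcodes, 10.0%. Eomes, a factor of cytotoxic and memory lymphocytes, had 0 UMIs in gamma-delta T cells, against 53.8, 41.1 and 48.5 CPM in alpha-beta T cells, at least 18.4-fold lower. Cd27, whose product marks the interferon-gamma-making gamma-delta subset, had 22.4, 18.9 and 9.34 CPM in gamma-delta T cells, against 154, 190 and 210 CPM in alpha-beta T cells (-3.55 ± 0.26, edgeR adjusted p = 3.92e-11).

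Ccl4, an inflammatory chemokine gene, had 87.2, 52.9 and 67.3 CPM in gamma-delta T cells, against 981, 950 and 1028 CPM in alpha-beta T cells (log2 difference -3.85 ± 0.13, edgeR adjusted p = 1.89e-17). Cxcr3, the receptor gene for interferon-induced chemokines, had 7.47, 15.1 and 1.87 CPM in gamma-delta T cells, against 105, 88.4 and 98.8 CPM in alpha-beta T cells (-3.85 ± 0.36, adjusted p = 5.76e-09). Fasl, the death ligand gene, had 4.98, 0 and 3.74 CPM in gamma-delta T cells, against 94.2, 69.5 and 101 CPM in alpha-beta T cells (-4.74 ± 0.40, adjusted p = 7.18e-10). The alpha-beta reference is mostly CD8 T cells, with 786 Cd8-positive barcodes of 1510, and against the 611 alpha-beta barcodes without Cd4 or Cd8 UMIs 9 of the 13 genes tested were lower, against 5.88% of all genes in that comparison. The chemokine gene Xcl1 was called lower (-2.45 ± 0.16, adjusted p = 4.79e-12), but not against that smaller set (-0.33, adjusted p = 0.827), without a library block (adjusted p = 0.156) or in barcodes with no myeloid or epithelial marker UMI (0.695).

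Cytotoxic granule genes were lower in 7 of 10 tested, against 9.26% of all genes, and not called in 3. In the smaller classes described below the direction was not shared by all. The list's median log2 difference was -1.81 against CD8 T cells, -3.85 against NK cells and -0.26 against CD4 conventional T cells. Against CD4 T cells 3 of the 6 genes tested lay above 0 and 3 below. Nkg7, a granule membrane protein gene, had 27.4, 64.2 and 50.4 CPM in gamma-delta T cells, against 2556, 2643 and 3093 CPM in alpha-beta T cells (-5.96 ± 0.15, edgeR adjusted p = 6.57e-21). Gzmk, for granzyme K, had 3 UMIs in gamma-delta T cells, against 634 in alpha-beta T cells, a ratio of 93.1 in favour of alpha-beta T cells (31.7 to 453). Gzmb, for granzyme B, had 47.3, 121 and 89.7 CPM in gamma-delta T cells, against 440, 282 and 423 CPM in alpha-beta T cells (-2.24 ± 0.36, adjusted p = 0.0177), a call that ended without replicate 3 (adjusted p = 0.156) and in barcodes with no myeloid or epithelial marker UMI (0.287). Neither granzyme gene overlapped between the classes, and Ctsw, a cathepsin gene, was lower by the smaller margin of -1.08 ± 0.13.

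NK receptor and adaptor genes split in direction, with 2 of 9 tested higher, 5 lower and 2 not called. Of all genes, 10.5% were higher and 9.26% lower. The list's median log2 difference was -2.93 against CD8 T cells, -4.95 against NK cells and 0.54 against CD4 conventional T cells. Against CD4 T cells 3 of the 5 genes tested lay above 0 and 2 below. Klrd1, the CD94 chain of inhibitory and activating receptors, had 34.9, 26.4 and 52.3 CPM in gamma-delta T cells, against 271, 458 and 336 CPM in alpha-beta T cells (log2 difference -3.12 ± 0.19, edgeR adjusted p = 3.3e-12). Its partners Klrc1 and Klrc2 were lower by -2.67 ± 0.19 and -2.16 ± 0.23. Klrk1, the gene of the activating receptor NKG2D, had 521, 510 and 508 CPM in gamma-delta T cells, against 321, 341 and 414 CPM in alpha-beta T cells (0.48 ± 0.11, adjusted p = 0.00118). The ranges of Klrk1 did not overlap, but DESeq2 (adjusted p = 0.0677) and the fit without replicate 1 (0.0651) did not call it.

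Checkpoint and costimulatory receptors were mostly lower, in 10 of 14 tested, against 9.26% of all genes. Of the others 1 was higher and 3 (Pdcd1, Cd226 and Nt5e) not called, and the list's median log2 difference was -2.24. Cd28, the classical costimulatory receptor gene, had 2.49, 11.3 and 5.60 CPM in gamma-delta T cells, against 292, 244 and 258 CPM in alpha-beta T cells (-5.49 ± 0.29, edgeR adjusted p = 4.81e-14). Icos, a relative of Cd28 and the exception, had 448, 385 and 420 CPM in gamma-delta T cells, against 178, 155 and 180 CPM in alpha-beta T cells (1.25 ± 0.12, adjusted p = 7.07e-09). The 2 genes of the same receptor family thus lay on opposite sides. Tnfrsf4, the gene of OX40, had 1 UMI in gamma-delta T cells, against 467 in alpha-beta T cells, a ratio of 206 in favour of alpha-beta T cells (36.7 to 8141). Lag3, an inhibitory receptor gene, had 0 UMIs in gamma-delta T cells, against 41.9, 115 and 114 CPM in alpha-beta T cells, at least 38.9-fold lower, and was not called without a library block (adjusted p = 0.0511). Ctla4 had 19.9, 22.7 and 37.4 CPM in gamma-delta T cells, against 71.8, 93.1 and 109 CPM in alpha-beta T cells (-1.76 ± 0.24, adjusted p = 2.92e-06). Among all genes, Penk, which encodes proenkephalin, was also at 0 UMIs in gamma-delta T cells, against 46.3, 77.6 and 34.7 CPM in alpha-beta T cells, at least 24.4-fold lower.

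Of 17 T-cell receptor signalling genes tested, 10 were lower, 2 (Cd247 and Lax1) higher and 5 not called, with a median log2 difference of -0.98. Among all genes 9.26% were lower and 10.5% higher. Lck, the kinase that starts the receptor signal, had 17.4, 34.0 and 28.0 CPM in gamma-delta T cells, against 549, 542 and 662 CPM in alpha-beta T cells (-4.54 ± 0.18, edgeR adjusted p = 1.16e-16). Cd2, an adhesion receptor gene, had 4.98, 7.55 and 3.74 CPM in gamma-delta T cells, against 299, 280 and 362 CPM in alpha-beta T cells (-5.98 ± 0.27, adjusted p = 2.15e-15). Cd5, a negative regulator of receptor signals, had 7.47, 15.1 and 5.60 CPM in gamma-delta T cells, against 109, 97.1 and 90.2 CPM in alpha-beta T cells (-3.54 ± 0.32, adjusted p = 2.89e-09). Cd6, a relative of Cd5, had 2 UMIs in gamma-delta T cells, against 428 in alpha-beta T cells, and Themis, a thymocyte selection gene, had 1 against 166. By contrast the CD3 zeta chain gene Cd247 had 289, 317 and 331 CPM in gamma-delta T cells, against 111, 117 and 161 CPM in alpha-beta T cells (1.25 ± 0.14, adjusted p = 7.39e-08). Cd3e, read by the rule, had 1231, 951 and 1175 CPM in gamma-delta T cells, against 903, 923 and 974 CPM in alpha-beta T cells.

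Genes of tissue-settled and activated lymphocytes were more often higher than lower. Of 16 genes of memory, migration and the cytoskeleton, 11 were higher, against 10.5% of all genes, and 5 not called. Against alpha-beta T cells without Cd4 or Cd8 UMIs the count was only 6 of 16, with 7.52% of all genes higher there. Capg, an actin-capping protein gene, had 747, 800 and 736 CPM in gamma-delta T cells, against 250, 293 and 286 CPM in alpha-beta T cells (log2 difference 1.43 ± 0.10), and S100a4, a calcium-binding protein gene, was higher by 1.17 ± 0.09. Of 10 tissue residency genes, 5 were higher, 2 lower (Xcl1 among them) and 3 not called, against 10.5% of all genes higher and 9.26% lower. Klf2 and S1pr1, listed as genes of recirculating T cells, were called higher as well. Against alpha-beta T cells without Cd4 or Cd8 UMIs neither was called (Klf2 0.016, edgeR adjusted p = 0.96, and S1pr1 -0.11, adjusted p = 0.86). DESeq2 called neither (Klf2 adjusted p = 0.149, S1pr1 0.681). By edgeR the S1pr1 call was lost without replicate 1 (adjusted p = 0.139), replicate 2 (0.0602) or replicate 3 (0.313). The Klf2 call was lost without replicate 1 (0.0527) or replicate 2 (0.0623). Cd69, an early activation and tissue retention gene, had 797, 736 and 579 CPM in gamma-delta T cells, against 250, 225 and 198 CPM in alpha-beta T cells (1.61 ± 0.10, edgeR adjusted p = 3.76e-12). Itgae, the gene of the CD103 integrin chain, had 84.7, 94.4 and 123 CPM in gamma-delta T cells, against 35.9, 22.9 and 38.1 CPM in alpha-beta T cells (1.63 ± 0.22, adjusted p = 3.19e-06). Ly6c2, carried by memory CD8 T cells, was far lower, with 24.9, 56.6 and 35.5 CPM in gamma-delta T cells, against 689, 785 and 993 CPM in alpha-beta T cells (-4.52 ± 0.16, adjusted p = 3.17e-17).

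Of 12 chemoattractant receptor genes tested, 6 were higher, 3 lower and 3 not called, against 10.5% of all genes higher and 9.26% lower. Cxcr6, a receptor gene of tissue-resident lymphocytes, had 854, 978 and 871 CPM in gamma-delta T cells, against 342, 382 and 473 CPM in alpha-beta T cells (log2 difference 1.15 ± 0.10, edgeR adjusted p = 1.73e-09). Ccr2, the receptor gene for CCL2, had 443, 445 and 469 CPM in gamma-delta T cells, against 275, 165 and 232 CPM in alpha-beta T cells (1.00 ± 0.13, adjusted p = 2.55e-06). Both had ranges that did not overlap.

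Immediate-early and stress genes were higher in 12 of 15 tested, against 10.5% of all genes, and not called in 3, with a median log2 difference of 1.75. Fos, an AP-1 subunit gene, had 1559, 2261 and 1980 CPM in gamma-delta T cells, against 301, 365 and 383 CPM in alpha-beta T cells (2.43 ± 0.10, edgeR adjusted p = 1.16e-16). Jun, its partner, had 381, 483 and 547 CPM in gamma-delta T cells, against 95.7, 71.5 and 71.1 CPM in alpha-beta T cells (2.53 ± 0.16, adjusted p = 3.47e-11). Neither gene's ranges overlapped between the classes.

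Cell-cycle genes were lower in 11 of 14 tested, against 9.26% of all genes, and not called in 3, with a median log2 difference of -1.12. The direction was not shared by all the smaller classes described below. The list's median was -1.63 against CD8 T cells, 0.002 against CD4 conventional T cells and 0.14 against NK cells. Against CD4 T cells 3 of 5 genes tested lay above 0, and against NK cells 4 of 6. Hmgb2, a chromatin gene that rises in dividing cells, had 675, 479 and 594 CPM in gamma-delta T cells, against 1218, 1047 and 1290 CPM in alpha-beta T cells (-1.06 ± 0.09, edgeR adjusted p = 1.65e-09). Top2a, needed to separate chromosomes, had 42.4, 26.4 and 26.2 CPM in gamma-delta T cells, against 97.2, 97.8 and 76.3 CPM in alpha-beta T cells (-1.52 ± 0.23, adjusted p = 1.72e-05). Against alpha-beta T cells without Cd4 or Cd8 UMIs 3 of the 11 genes tested were lower, against 5.88% of all genes in that comparison, and Top2a was not called (-0.34, adjusted p = 0.664).

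Interferon-stimulated genes were lower in 7 of 11 tested and not called in 4, against 9.26% of all genes lower. The direction was not shared by all the smaller classes described below. The list's median log2 difference was -1.08 against CD8 T cells, -0.12 against CD4 conventional T cells and 0.76 against NK cells. Ifi27l2a, an interferon-induced mitochondrial protein gene, had 331, 623 and 306 CPM in gamma-delta T cells, against 3099, 3382 and 3651 CPM in alpha-beta T cells (log2 difference -3.12 ± 0.24, edgeR adjusted p = 0.00127). Ifit3, an antiviral effector gene, had 7.47, 3.78 and 14.9 CPM in gamma-delta T cells, against 61.3, 30.4 and 102 CPM in alpha-beta T cells (-2.87 ± 0.33, adjusted p = 2e-07). Of 15 glycolysis and HIF target genes 1 was higher, 1 lower and 13 not called, with a median log2 difference of -0.04. Of 15 respiratory chain genes 2 were higher, 1 lower and 12 not called, with a median of 0.02. Over all genes 19.7% were called, 10.5% higher and 9.26% lower, so these counts do not set the metabolic lists apart. Hk2, the gene of the inducible hexokinase, had 89.7, 121 and 112 CPM in gamma-delta T cells, against 10.5, 19.6 and 29.5 CPM in alpha-beta T cells (2.44 ± 0.24, adjusted p = 1.3e-08). Gapdh, a later glycolytic step, was lower by -0.55 ± 0.09. Lipid metabolism genes held 1 lower of 5 tested, and BCL2 family genes 2 higher and 1 lower of 9. Naive and recirculating T-cell genes held 2 higher (Klf2 and S1pr1) and 3 lower of 11.

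**Figure D3:**
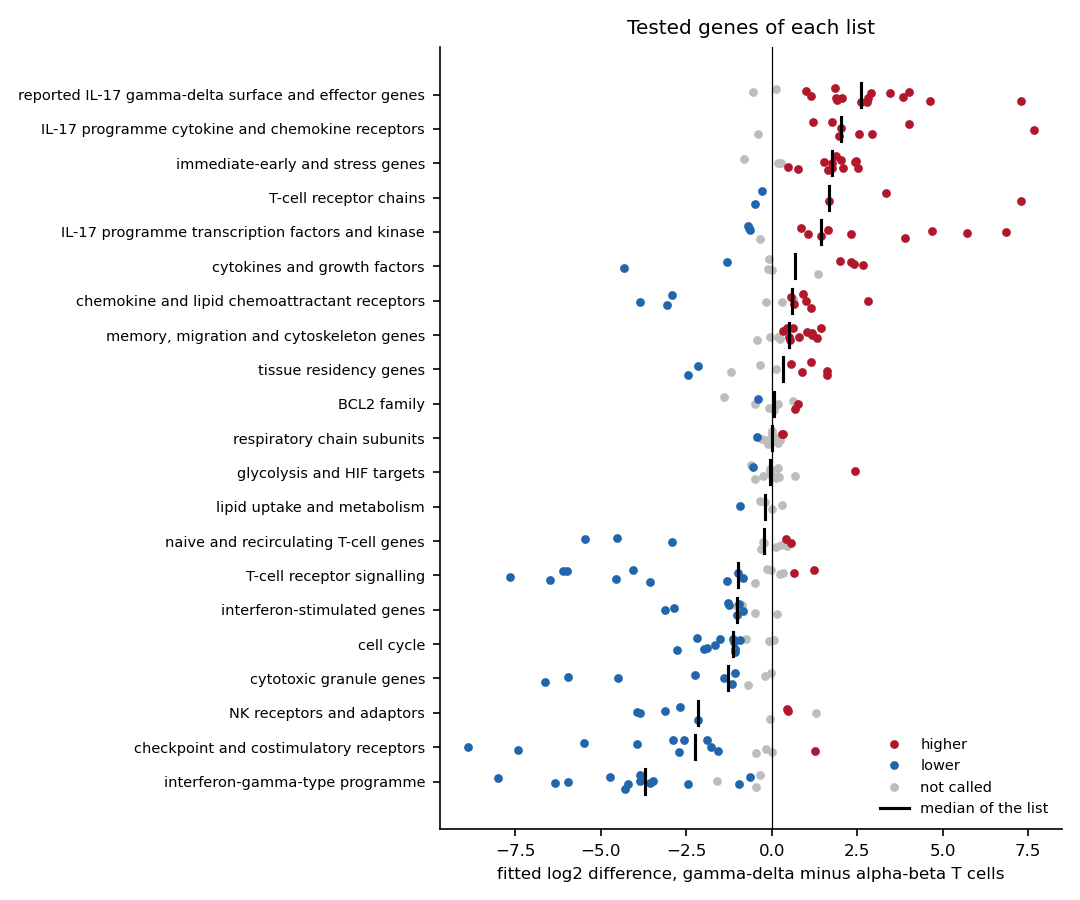
Fitted log2 difference, gamma-delta minus alpha-beta T cells, of every tested gene of each list, coloured by whether edgeR called it higher (red), lower (blue) or neither (grey) at an adjusted p under 0.05, with a bar at the list's median. IL-17 programme genes and immediate-early genes lie mostly to the right of 0 and interferon-gamma-type, checkpoint and cell-cycle genes mostly to the left, and fitted values of genes with 0 UMIs in a class are not bounds.

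The gamma-delta T cells were also set against smaller classes. These comparisons share the same gamma-delta sums, so their values stand side by side and are no independent repeats. Against 97 CD4 conventional T cells (Cd4-positive, Cd8- and Foxp3-negative; 12, 61 and 24 barcodes), 7.55% of 2847 genes were called. The CD4 class held 174948 UMIs, against 2728302 in alpha-beta T cells, and the part of depth in the genes not called there was not tested. Against 786 CD8 T cells (Cd8-positive, Cd4-negative) 24.4% of 4266 genes were called, and against 230 NK cells (Ncr1-positive, Cd3-negative) 19.6% of 3320. Il17a had 56.1, 132 and 45.6 CPM in CD4 T cells, 25.7, 2.39 and 0 CPM in CD8 T cells and 0, 0 and 14.0 CPM in NK cells. Every gamma-delta library stood far above all of these. Blk had 0 UMIs in CD4 T cells and in NK cells and 2 in CD8 T cells, so it was at least 17.2-fold higher in gamma-delta T cells than in CD4 T cells, at least 37.0-fold higher than in NK cells, and 227 times higher than in CD8 T cells (62.3 to 1880). Sox13 and Il1r1 had 0 UMIs in all 3 classes.

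The log2 difference of Maf was 1.06 against CD4 T cells, 4.70 against CD8 T cells and 2.97 against NK cells. For Il7r it was 1.01, 2.81 and 4.53 in the same order, and for Tnfrsf25 1.49, 5.83 and 4.21, all called by edgeR. CD4 T cells were thus the nearest of the 3 in these fits, and whether the differences themselves differed was not tested. Rora (0.74, edgeR adjusted p = 0.33) and Icos (0.65, adjusted p = 0.18) were not called against CD4 T cells. Neither were the cytokine genes Csf2 (-0.80, adjusted p = 0.49), Areg (0.42, adjusted p = 0.81) and Tnf (1.48, adjusted p = 0.094). Of the regulator list, 3 of 11 tested were higher against CD4 T cells, 8 of 12 against CD8 T cells and 6 of 11 against NK cells, where 4.32%, 12.6% and 9.91% of all genes were higher in the same order.

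Several genes that were lower against alpha-beta T cells were lower against each smaller class. Lck differed by -4.25 against CD4 T cells, -4.67 against CD8 T cells and -4.03 against NK cells on the log2 scale, Cd28 by -4.89, -5.57 and -3.71, and Nkg7 by -5.47, -6.32 and -5.90. Gzma, for granzyme A, had 4.98, 0 and 0 CPM in gamma-delta T cells, against 2112, 3279 and 4160 CPM in NK cells, 2 UMIs against 1206. All 15 NK receptor and adaptor genes tested against NK cells were lower in gamma-delta T cells, against 9.73% of all genes. Trdc itself had 133, 162 and 223 CPM in NK cells, where 48 of 230 barcodes held a UMI, so a Trdc UMI alone does not mark a gamma-delta T cell in these libraries. Fos was higher against CD4, CD8 and NK cells by 2.20, 2.73 and 2.93 on the log2 scale.

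**Figure D4:**
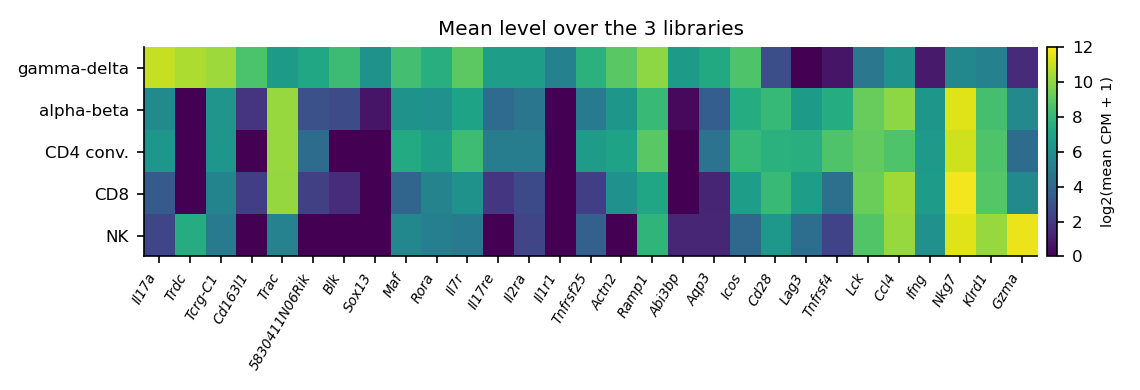
Mean level over 3 libraries, as log2(mean CPM + 1), of genes described in the text in gamma-delta T cells, alpha-beta T cells and the CD4, CD8 and NK classes. Il17a, Blk and Sox13 are each brighter in the gamma-delta row than in the other rows. Nkg7, Ccl4 and Lck are each darker there than in the alpha-beta row.

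Within the gamma-delta T cells, 455 barcodes held a Cd163l1 or Il17a UMI and 151 held neither. The overlap was 170 barcodes with both, 226 with Il17a alone and 59 with Cd163l1 alone. Median depth was 1901 UMIs in the 455 and 1656 in the 151, and the part of depth in the split was not tested. The 2 sets differed in 124 of 2394 genes (5.18%), 32 higher (1.34%) and 92 lower (3.84%) in the Cd163l1-or-Il17a set. Neutrophil marker genes summed to 643 to 842 CPM in the Cd163l1-or-Il17a set, against 694 to 1661 CPM in the other set.

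Xcl1, the gene of a dendritic-cell attractant, had 0 UMIs in the Cd163l1-or-Il17a set, against 112, 799 and 197 CPM in the other set, at least 85.4-fold lower. Nkg7 had 22.4, 46.0 and 7.44 CPM in the Cd163l1-or-Il17a set, against 44.8, 147 and 181 CPM in the other set (edgeR adjusted p = 0.00102), with ranges that overlapped. Klrd1 had 25.6, 23.0 and 24.8 CPM in the Cd163l1-or-Il17a set, against 67.2, 42.0 and 136 CPM in the other set (adjusted p = 0.0193). Ly6c2 had 12.8, 32.2 and 27.3 CPM in the Cd163l1-or-Il17a set, against 67.2, 168 and 60.5 CPM in the other set (adjusted p = 0.0264), and Tnfrsf18, the gene of the costimulatory receptor GITR, was also called lower (adjusted p = 0.0093). Of the lists, 1 of 5 cytotoxic granule genes and 1 of 4 NK receptor genes tested were lower. Areg went the other way, with 66 UMIs in the Cd163l1-or-Il17a set, against 2 in the other set, a ratio of 9.53 (2.53 to 80.3), as did Hbegf, with 122, 202 and 166 CPM in the Cd163l1-or-Il17a set, against 67.2, 21.0 and 30.2 CPM in the other set (log2 difference 1.84 ± 0.41, adjusted p = 0.00303). Without replicate 1, 2 genes were called, Xcl1 among them (adjusted p = 0.00166). The calls of Nkg7 (-3.12, adjusted p = 0.135), Areg (3.56, 0.232), Hbegf (2.56, 0.108), Ly6c2 (-1.77, 0.278) and Tnfrsf18 (-1.59, 0.273) were lost there while their log2 differences kept their sign. Hbegf was also not called without replicate 3 (0.117), Ly6c2 without replicate 2 (0.188), and Klrd1 (0.0538), Ly6c2 (0.106) and Tnfrsf18 (0.0782) without a low-count filter. Xcl1 in turn was not called without a library block (adjusted p = 0.366).

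The 2 SCART scavenger receptor genes, Cd163l1 and its neighbour 5830411N06Rik (SCART2), divided the cells further. They lie in the same orientation on chromosome 7, at chr7:140218267-140231145 and chr7:140247284-140300736 (GRCm38), and their promoters are shown because their transcripts seldom met in a barcode. The windows are from RefSeq on GRCm38.p6, at chr7:140218017-140218316 and chr7:140247051-140247350, both on the plus strand and written 5′ to 3′, with the hexamer AGGTCA or TGACCT in capitals.
Cd163l1: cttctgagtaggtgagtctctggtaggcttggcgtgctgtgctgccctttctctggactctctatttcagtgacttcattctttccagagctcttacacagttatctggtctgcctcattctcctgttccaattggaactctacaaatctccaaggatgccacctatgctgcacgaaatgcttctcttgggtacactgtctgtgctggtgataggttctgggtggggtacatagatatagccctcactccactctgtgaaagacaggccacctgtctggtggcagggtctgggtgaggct
5830411N06Rik: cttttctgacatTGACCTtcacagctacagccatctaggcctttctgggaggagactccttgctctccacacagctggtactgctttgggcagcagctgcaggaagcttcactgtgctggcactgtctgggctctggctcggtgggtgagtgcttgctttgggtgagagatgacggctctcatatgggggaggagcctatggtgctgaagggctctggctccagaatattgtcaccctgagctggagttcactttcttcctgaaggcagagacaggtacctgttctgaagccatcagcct
Cd163l1 had no match, and the match of 5830411N06Rik, in the first of its 3 listed windows, began at base -238 from that window's start site. 5830411N06Rik had 82.2, 151 and 194 CPM in gamma-delta T cells, against 10.5, 1.35 and 8.67 CPM in alpha-beta T cells (log2 difference 4.62 ± 0.39, edgeR adjusted p = 4.79e-07). A UMI was present in 96 of 606 gamma-delta barcodes, 15.8%, against 0.596% of alpha-beta barcodes.

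Cd163l1 without 5830411N06Rik was found in 226 barcodes, 5830411N06Rik without Cd163l1 in 93, both in 3 and neither in 284. The split was chosen after its values were seen, so what follows is a description with no test. The Cd163l1 set was 47.2%, 31.3% and 30.2% of gamma-delta T cells in replicates 1 to 3, and the 5830411N06Rik set 8.13%, 17.2% and 21.98%, with median depths of 1867.5 and 2070 UMIs. Trdv4, the delta variable gene that pairs with Tcrg-V6 in the receptor of tissue-settled IL-17 gamma-delta T cells, had a UMI in 34 of 226 Cd163l1 barcodes, 15.04%, against 0 of 93 5830411N06Rik barcodes. Tcrg-V6 itself was seen in 7 Cd163l1 barcodes and 0 of the 5830411N06Rik barcodes, and Tcrg-V4, the gamma variable gene of another IL-17 subset, in 0 and 4. The gamma constant gene Tcrg-C2 was found in 27.9% of Cd163l1 barcodes and 48.4% of 5830411N06Rik barcodes, and Trgv2 in 6.64% and 19.4%. Barcodes with neither SCART transcript held Tcrg-C2 in 48.2% and Trgv2 in 15.5%, so these genes were not particular to the 5830411N06Rik set.

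Of the regulators, Blk was found in 44.2% of Cd163l1 barcodes and 44.1% of 5830411N06Rik barcodes, Maf in 50.4% and 52.7%, and Sox13 in 13.7% and 18.3%. Zbtb16 had 31.7, 53.9 and 56.7 CPM in the Cd163l1 set, against 0, 0 and 16.98 CPM in the 5830411N06Rik set, 21 UMIs against 2. Rora had 259, 237 and 182 CPM in the Cd163l1 set, against 180, 128 and 170 CPM in the 5830411N06Rik set, so the ranges of both genes did not overlap. Il17a was found in 74.8% of Cd163l1 barcodes and 63.4% of 5830411N06Rik barcodes, and its summed level overlapped, at 2456, 2557 and 1481 CPM in the Cd163l1 set and 770, 2286 and 1885 CPM in the 5830411N06Rik set. Il1r1 was found in 12.8% of Cd163l1 barcodes and 1.08% of 5830411N06Rik barcodes, and Hbegf in 25.7% and 12.9%. Pdcd1, the gene of the inhibitory receptor PD-1, had 121, 194 and 79.4 CPM in the Cd163l1 set, against 0, 21.4 and 16.98 CPM in the 5830411N06Rik set, so the ranges did not overlap. The adaptor gene Clnk had 121, 108 and 62.4 CPM in the Cd163l1 set, against 0 in all 3 libraries of the 5830411N06Rik set. Ms4a4b, a membrane protein gene of T cells, had 31.7, 86.3 and 68.1 CPM in the Cd163l1 set, against 154, 320 and 195 CPM in the 5830411N06Rik set, and Cd79b had 37.0, 10.8 and 39.7 CPM in the Cd163l1 set, against 77.0, 150 and 76.4 CPM in the 5830411N06Rik set. Of 3549 genes described in this way, 16.3% had ranges that did not overlap, so separate ranges were common.

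**Figure D5:**
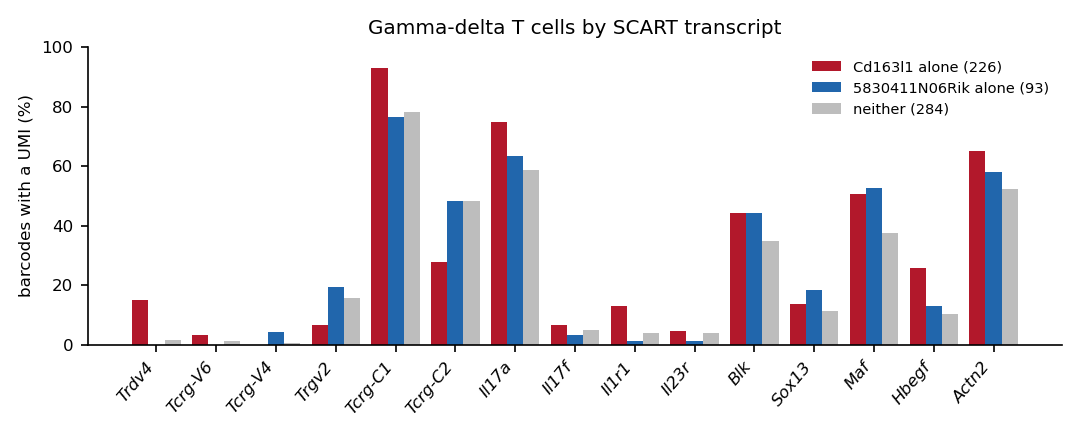
Percentage of gamma-delta T-cell barcodes with at least 1 UMI of each gene, for barcodes with Cd163l1 alone (226), with 5830411N06Rik alone (93) and with neither (284). Trdv4, Tcrg-V6 and Il1r1 are found mainly in the Cd163l1 set. Tcrg-C2 and Trgv2 are found less often in the Cd163l1 set than in the 5830411N06Rik set or in barcodes with neither. Blk and Maf are at similar shares in the Cd163l1 and 5830411N06Rik sets.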

How the data were processed

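The authors deposited 1 matrix of UMI counts per library, over 28692 genes. Cell Ranger, Seurat and mm10 are named, without versions, per the submitters' processing notes. The labels give a 5′ platform and also a 3′ protocol, so the transcript end counted is unknown. Library totals were 9846404, 15259236 and 9445914 UMIs. Limits of 200 genes or more and 10% mitochondrial UMIs or less left 14226 of 14336 barcodes. Summed counts per library and class were tested by edgeR 4.0.16 (R 4.3.3, quasi-likelihood, TMM, filterByExpr), with the library as a block because both sums of a pair came from the same library. P-values were Benjamini-Hochberg adjusted over all tested genes, with calls under 0.05. Alternatives were DESeq2 1.42.0, other scaling, filters and gates, thinning to 1000 UMIs, and leaving out each library. Scrublet (scanpy 1.11.5) marked 2 barcodes as doublets, so it had not worked, and none was removed, while an alternative left out the 560 highest scores. On simulated counts of the comparison with alpha-beta T cells, the test called 100% of genes raised by log2 2 and 46.0% of those raised by log2 1. It called 92.5% of genes lowered by log2 2, 42.6% of those lowered by log2 1 and 0.216% of 4622 unchanged genes. The simulation fixed 1 dispersion for all genes and gave both classes of a library the same library effect, so these rates hold for that setting alone. Named genes were the 15 highest and 10 lowest called log2 differences (mean log2 CPM at least 5, same direction in 3 libraries, without predicted, ribosomal and mitochondrial genes) plus up to 6 called genes per list. Genes named only in the description of the SCART sets and in counts of 5 or fewer were chosen after their values were seen. Members and lists were chosen with earlier results of these data known.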

Additional observations from a re-analysis of the deposited data

How the results depend on the processing

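The count of genes called between gamma-delta and alpha-beta T cells (1079) was 455 with DESeq2, 366 in barcodes with no neutrophil, macrophage or epithelial marker UMI (170 gamma-delta and 504 alpha-beta), 563 against alpha-beta T cells without Cd4 or Cd8 UMIs, 690 after thinning, and 646 to 944 with a library left out. With the receptor-transcript choice (1036) it was 434 with DESeq2 and 656 to 896 with a library left out. Against CD4 T cells (215) it was 89 with DESeq2 and 74 to 212, lowest without replicate 2. Against CD8 T cells (1040) it was 463 and 822 to 904, and against NK cells (652) 291 and 283 to 525, lowest without replicate 2. Within the gamma-delta T cells (124) it was 41 with DESeq2, 50 without a low-count filter and 2 to 81, lowest without replicate 1. Without the library block the counts were 954, 915, 205, 929, 582 and 51 in the same order. The split of higher and lower calls moved to 49 and 42 with library totals and 43 and 7 without a filter within the gamma-delta T cells (32 and 92), to 36 and 53 with DESeq2 against CD4 T cells (123 and 92), and to 442 and 236 without a filter against NK cells (329 and 323). Mean share was 4.60% of all and 17.5% of Cd3-positive barcodes. S1pr1 (0.57) changed sign to -0.11 against alpha-beta T cells without Cd4 or Cd8 UMIs, and the neutrophil markers G0s2 (0.49) and Il1b (0.27) ranged from -0.14 to 0.83 and from -0.10 to 0.69 with a library left out, lowest without replicate 2. The cause was not tested. Of the named genes' values under these alternatives between gamma-delta and alpha-beta T cells, 1739 kept their call, 95 lost it, 4 gained one and 3 changed sign. Called genes that stayed called without any 1 library numbered 517 of 1079. Genes with few UMIs, such as Il23r (22 in gamma-delta and 3 in alpha-beta T cells), carry wide counting intervals.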
